A study of Zea mays with 42 samples.

Results

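Cab-m7 and lhcb6 encode chlorophyll-binding proteins of the light-harvesting antenna. Their members are the probe sets whose gene symbol or synonym in the probe annotation, in RefSeq or in the study's list of gene pairs is Cab-m7 or lhcb6, which gave 6 of the 17734 probe sets on the array. Cab-m7 had 2 probe sets. Zm.16923.1.A1_at was tied to the gene GRMZM2G402936 on chromosome 6, and Zm.15442.1.A1_at carries the symbol Cab-m7 under an older gene ID that RefSeq does not list, so it is not known whether both read the same gene. The gene lhcb6 (GRMZM2G092427, also named CP24, on chromosome 10) had 4 probe sets, Zm.7091.1.A1_at, Zm.7091.1.A1_x_at, Zm.7091.2.S1_a_at and Zm.7091.2.A1_at. By the maker's naming, the ending x_at marks a probe set with probes that also match other sequences, and a_at marks one that reads several transcripts of 1 gene. Symbols and chromosomes come from RefSeq annotation of the assembly Zm-B73-REFERENCE-NAM-5.0.

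RNA of 14 tissues was hybridised to 42 Affymetrix maize arrays, with 3 biological replicates per tissue. All plants were of the untreated inbred line B73, and the sources name no transgene or mutation. Root, stem, stem tip and leaf were taken at the big trumpet stage, ear and silk before pollination, and embryo and endosperm at 10, 15, 20 and 25 days after pollination (DAP). Whether a replicate was 1 plant or a pool is not given in the sources used here.

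In chloroplasts, light-harvesting proteins bind chlorophyll a and b in the thylakoid membrane and pass absorbed energy to the photosystems. CP24 is one of the minor antenna proteins that sit between the core of photosystem II and its main trimeric antenna. In green plants these nuclear genes are known for high transcript levels in illuminated leaf tissue. In maize leaves, C4 photosynthesis divides carbon fixation between mesophyll and bundle sheath cells.

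The values are MAS5 signals, a linear measure of brightness per probe set. A signal is comparable between arrays for 1 probe set, but not between probe sets, since probes differ in affinity. The 66 probe sets for reporter genes, which read no maize gene, gave a background: their 90th percentile was 72.4 to 173 over the 42 arrays. On the 18 non-seed arrays the brightest probe set reached 20125 to 22997. Replicates of a tissue correlated at a mean r of 0.930 to 0.995, with root replicate 1 lowest. Among marker genes, zeins were highest in endosperm, oleosin ole1 in embryo and the C4 gene pep1 in leaf. Summed zein signal also reached 69397 in a 10 DAP embryo, against at most 1986 in non-seed tissues. Mean ole1 was 10321 in endosperm at 25 DAP, and 4 embryo markers summed to 6574 to 7973 in root. Root markers (2045 to 9541 in root) overlapped silk (1566 to 3408). Ear and silk markers summed to 5558 to 7263 there and at most 1478 elsewhere. The C4 gene PPCK1 had a higher mean in ear (3824) than in leaf (1380). The knotted gene kn1, known for its role in shoot meristems, was at 4347 to 5441 in stem and at 1599, 5805 and 319 in stem tip replicates 1 to 3.

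**Figure D1:**
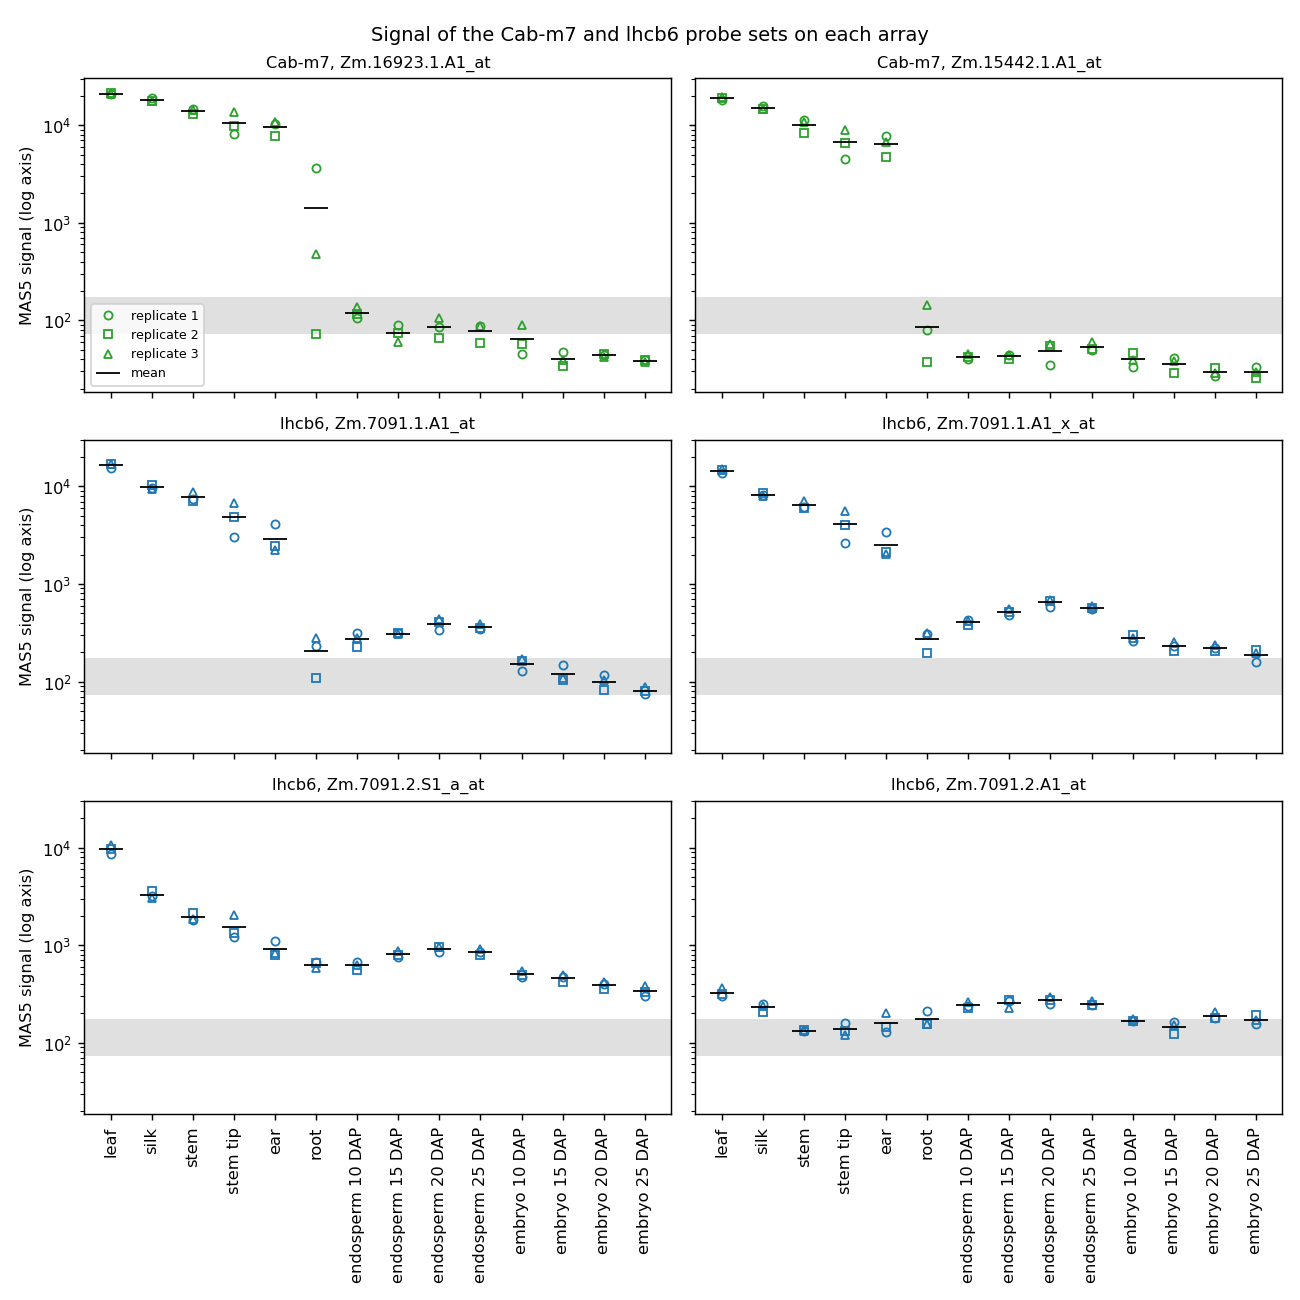
MAS5 signal (log axis) of the 6 probe sets on each of 42 arrays by tissue, with the mean of 3 replicates as a bar. The grey band spans the 90th percentile of the reporter probe sets, 72.4 to 173. Signals of 5 probe sets fall from leaf over silk, stem and stem tip to ear, the Cab-m7 probe set Zm.16923.1.A1_at spreads widely in root, and Zm.7091.2.A1_at stays between 121 and 362.

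The Cab-m7 transcript was at its highest in leaf and nearly as high in silk. For Zm.16923.1.A1_at the leaf arrays gave 20839, 21565 and 20769, and the silk arrays 19073, 17876 and 17648. Stem gave 14821, 13084 and 14474. These 3 tissues did not overlap, and in leaf the probe set ranked 5th by mean signal of 17555 maize probe sets, close to the brightest signals of the arrays. Whether the scale is compressed at this height was not tested. Stem tip gave 8219, 9798 and 13576 and ear 10350, 7742 and 10884, which overlapped each other. In the seed the signals lay at 136 or less, and 3 of the 24 seed arrays passed the reporter 90th percentile of their own array.

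The second Cab-m7 probe set, Zm.15442.1.A1_at, ran through the tissues in a like order. Its leaf arrays gave 18310, 19173 and 19408, its silk arrays 15829, 14772 and 14647, and its stem arrays 11199, 8318 and 10833. Ear gave 7678, 4679 and 6706 and stem tip 4493, 6531 and 8981, again overlapping. Root gave 79.7, 37.4 and 143, and none of the 24 seed arrays exceeded 59.8, each under the reporter percentile of its array. Over 14 tissue means of log2 signal the Cab-m7 probe sets had r = 0.986 and rho = 0.965.

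The minor antenna gene lhcb6 was also highest in leaf, followed by silk in 3 of its 4 probe sets. Zm.7091.1.A1_x_at gave 13656, 14604 and 15042 in leaf, 8134, 8550 and 8002 in silk, and 6189, 5961 and 7063 in stem. Stem tip gave 2604, 4024 and 5621 and ear 3421, 2133 and 2011. Leaf, silk and stem arrays stood apart from each other, while stem tip and ear overlapped. Zm.7091.1.A1_at followed it over the tissues (r = 0.997, n = 14 tissue means), with 15387 to 16931 in leaf and 2214 to 4091 in ear.

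The transcript-spanning probe set Zm.7091.2.S1_a_at kept 34.2% of its leaf mean in silk and 9.42% in ear, against 57.0% and 17.5% for Zm.7091.1.A1_x_at, but more of it in root (6.57% against 1.89%). Its leaf arrays gave 8608, 9608 and 10594, its silk arrays 3212, 3615 and 3028 and its stem arrays 1789, 2124 and 1848. Root was at 665, 651 and 577, inside the range of the seed tissues (303 to 962). The fourth lhcb6 probe set, Zm.7091.2.A1_at, did not share this course: its tissue means ran from 133 in stem to 327 in leaf, and its r with the other lhcb6 probe sets over tissue means was 0.09, 0.13 and 0.40. The lhcb6 symbol therefore covers probe sets that differ in range, and each is described under its own name.

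Groups were compared on log2 signal with limma, in a single fit of the 14 tissues, with Benjamini-Hochberg adjustment over 17621 probe sets. A difference was called when its adjusted p was under 0.05 and its size 2-fold or more. In leaf against the mean of root, stem, stem tip, ear and silk, all 6 probe sets were called higher, where 14.7% of all probe sets were. For lhcb6 the log2 folds were 2.52 ± 0.19 (SE) for Zm.7091.1.A1_at, 2.44 ± 0.15 for Zm.7091.1.A1_x_at and 2.78 ± 0.11 for Zm.7091.2.S1_a_at, with adjusted p of at most 2.0e-13 by limma. Zm.7091.2.A1_at was at the threshold itself, with 1.00 ± 0.12, and it slipped under a fold of 2, to between 0.93 and 0.999, when ear replicate 1 or 2, leaf replicate 3, root replicate 2 or 3, silk replicate 2 or stem tip replicate 2 or 3 was left out, to 0.68 with centring on the hybridization controls and to 0.87 with a pseudocount of 32. In bulk tissue, fewer cells that express a gene and less RNA per cell cannot be told apart.

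Cab-m7 had log2 folds of 2.48 ± 0.22 (Zm.15442.1.A1_at, adjusted p = 3.7e-12, limma) and 1.67 ± 0.47 (Zm.16923.1.A1_at, adjusted p = 0.0023) in leaf against these tissues. The size of the second value rested on root. Without the 3 root arrays, a comparison added after the data had been seen, it was 0.74 ± 0.16. This was under the fold threshold, though it passed the adjusted p (1.5e-04, limma). Without replicate 3 of every tissue, root included, the value was 1.73 and missed the adjusted p (0.057, limma). Against silk, stem, stem tip and ear singly, the leaf mean of Zm.16923.1.A1_at was 1.16, 1.49, 2.04 and 2.20 times as high (from log2 means). In the fit over all arrays none of these was called, where 33.5% of all probe sets were called for leaf against silk. The standard error of such a pair in that fit was 0.61 log2 units, raised by the spread in root. The missing calls therefore do not show that leaf and these tissues are alike.

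**Figure D2:**
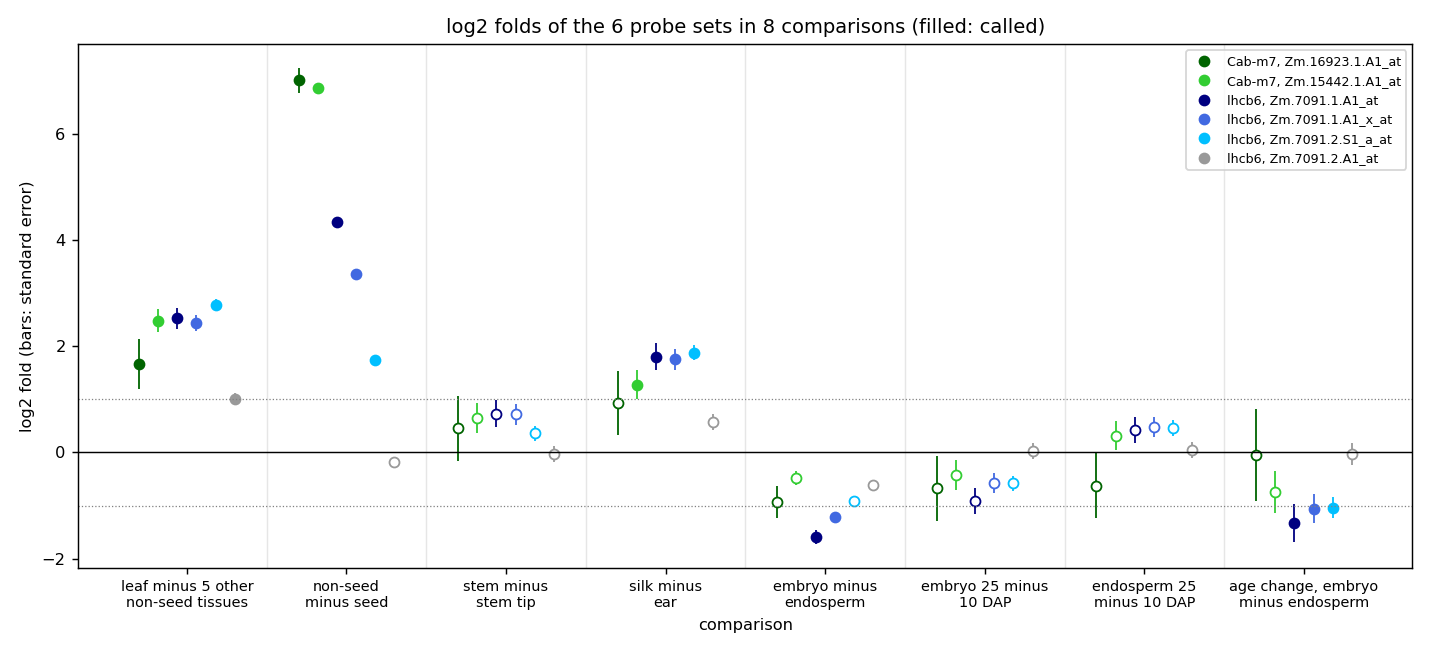
The log2 fold (points) and its standard error (bars) of the 6 probe sets in 8 comparisons, filled where called by limma and open where not. Dotted lines mark a 2-fold difference; all 6 points of leaf against the other non-seed tissues are filled, from 1.00 to 2.78, and none is filled for stem against stem tip.

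Neighbours in the order of tissue means were compared to see which steps exceeded the spread. For Zm.15442.1.A1_at the order was leaf, silk, stem, stem tip, ear, root, then endosperm and embryo, and 1 of 13 steps was called, that from ear to root (6.37 ± 0.28, adjusted p = 3.8e-19, limma), a step at which 34.0% of all probe sets were called. With signals under 100 taken as 100, ear was at least 55.3-fold over root. For Zm.16923.1.A1_at, ear to root (4.25 ± 0.61, or 4.09 with signals under 100 taken as 100) and root to endosperm at 10 DAP (2.09 ± 0.61) were called, the latter where 43.8% of all probe sets were, and its arrays overlapped. The standard error of that probe set was set by root: it was 0.61 log2 units for a pair of tissues with the root arrays in the fit and 0.20 without them. Without them, leaf over silk was 0.21 (adjusted p = 0.38, limma), silk over stem 0.37 (0.13) and stem over stem tip 0.45 (0.11) on the log2 scale, so that no step between neighbours among leaf, silk, stem, stem tip and ear passed. This does not show that tissues further apart in the order are alike. In that fit, leaf over the mean of silk, stem, stem tip and ear was 0.74 ± 0.16 (adjusted p = 1.5e-04, limma), under a fold of 2. For Zm.15442.1.A1_at the fit without root separated silk from stem (0.59, adjusted p = 0.014, limma) and stem from stem tip (0.65, 0.018), each under a fold of 2. In the fit without root, 64.7% of all probe sets had an adjusted p under 0.05 for leaf against silk and 54.1% for silk against stem. The shares were 22.8% for stem against stem tip and 39.5% for stem tip against ear.

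In lhcb6 several of these steps had an adjusted p under 0.05 with root in the fit. Leaf over silk was 0.81 ± 0.19 on the log2 scale for Zm.7091.1.A1_x_at (adjusted p = 4.4e-04, limma), stem over stem tip 0.72 (0.0091) and stem tip over ear 0.67 (0.0068), each under a fold of 2. These steps had an adjusted p under 0.05 in 61.7%, 16.2% and 33.8% of all probe sets. From ear to endosperm at 20 DAP, the next tissue in its order, Zm.7091.1.A1_x_at was called lower by 1.93, at a step where 47.1% were called. Silk and stem were not separated (0.36, adjusted p = 0.11). For Zm.7091.2.S1_a_at leaf over silk was called, at 1.55 ± 0.14 (adjusted p = 2.0e-11), where 33.5% of all probe sets were called.

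Whether Cab-m7 and lhcb6 differ in how far leaf exceeds the other non-seed tissues was tested on the difference of their log2 signals per array. Over 18 arrays, root included, the leaf excess of Zm.16923.1.A1_at was smaller than that of Zm.7091.1.A1_x_at by 0.77 and than that of Zm.7091.2.S1_a_at by 1.11 on the log2 scale, and neither difference passed (two-sided exact permutation tests over 816 arrangements, p = 0.25 and 0.35, adjusted p = 0.69 for both over 6 tests). Without the root arrays the differences were 0.87 and 1.75. The ranges of leaf and the other tissues then did not overlap, and the exact permutation p was 0.0044 for both, the smallest that 455 arrangements allow, with adjusted p = 0.0088. Leaving out only root replicate 2, whose Cab-m7 signal was lowest, gave 0.96 for the first (exact permutation, adjusted p = 0.035). The lhcb6 probe sets Zm.7091.1.A1_x_at and Zm.7091.2.S1_a_at differed from each other by 0.88 in the same way (exact permutation p = 0.0044). The version without root was added after the data had been seen. All of these tests exchange single arrays, although the arrays are replicates of tissues. A tissue with tight replicates at an end of the order can reach the smallest p. The p therefore cannot show a difference particular to leaf. Leaf signals of Zm.16923.1.A1_at were close to the brightest of the arrays, and the part of a compressed scale in its differences was not tested.

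Root was the tissue in which Cab-m7 varied most. For Zm.16923.1.A1_at the root arrays gave 3658, 72.9 and 480, a ratio of highest to lowest of 50.2. Over 17555 maize probe sets the median of this ratio in root was 1.48 and its 95th percentile 4.67, and 2 probe sets, this one included, had a ratio as large. The other Cab-m7 probe set was highest in replicate 3 instead, and the root arrays of lhcb6 spread by 1.15 to 2.54 times, so that no other member spread as widely.

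Some other leaf genes were raised on the same root array. ME1, the NADP-malic enzyme of the C4 cycle, gave 1087, 114 and 92.4, and psaH, a subunit of photosystem I, 884, 300 and 306. By contrast, rbcS, the small subunit of Rubisco, gave 510, 396 and 437 and pep1, the C4 phosphoenolpyruvate carboxylase, 94.3, 98.0 and 106. Root replicate 1 also correlated least with its own replicates, and the part of these features in the Cab-m7 value was not tested.

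The antenna genes were read against other genes of photosynthesis, found by symbol. The light-harvesting list held 8 probe sets, the 6 members with Lhcb5-2 and lhcb5, which encode CP26, another minor antenna protein. The other lists held 5 photosystem subunits (psad1, psaH, psaN, OEE3 and the photoprotective subunit CP22), 2 probe sets of Rubisco and its activase, 10 of the C4 cycle and 1 of the chloroplast regulator glk1. The 10 C4 probe sets read 6 genes, and several of them read the same gene, C4ppdkZm1 (also named pdk1). In leaf against the other non-seed tissues 8 of 8, 5 of 5, 2 of 2, 7 of 10 and 1 of 1 were called higher and none lower, beside 14.7% and 18.3% of all probe sets. The median log2 folds were 2.46, 3.33, 4.20, 4.71 and 6.85 (2.40, 3.28, 4.16, 4.71 and 4.36 with signals under 100 taken as 100), and the median over all probe sets was -0.03.

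**Figure D3:**
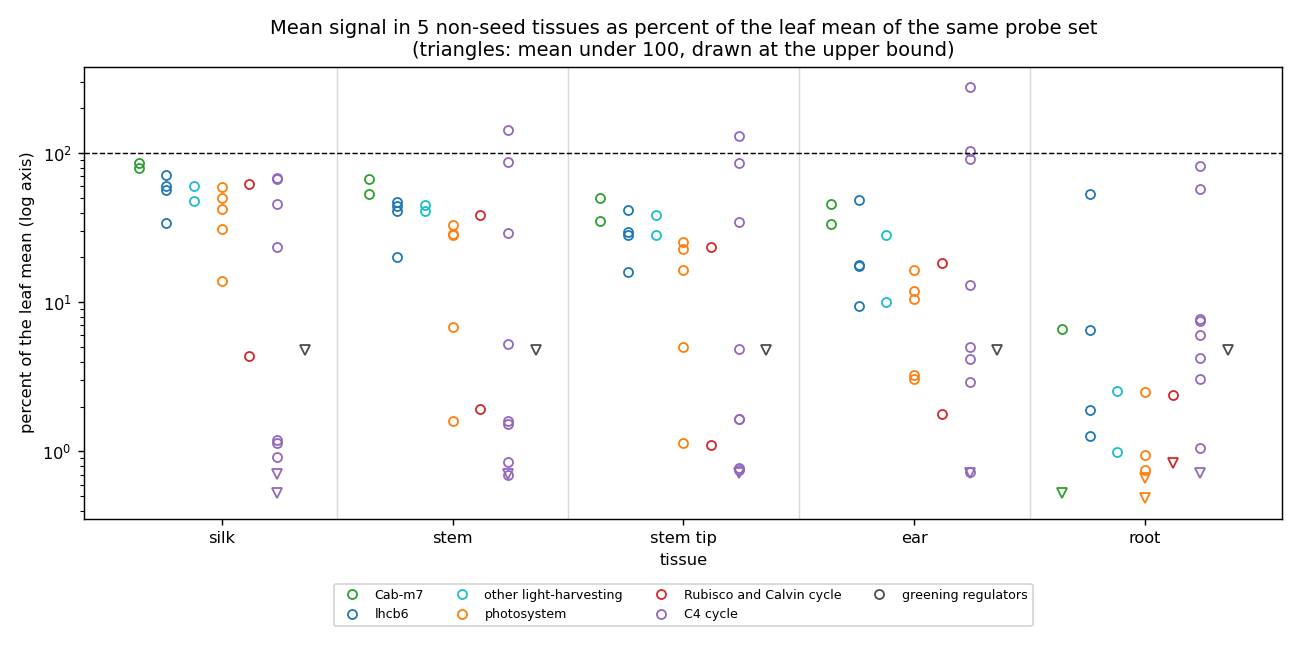
Mean signal in silk, stem, stem tip, ear and root as percent of the leaf mean of the same probe set (log axis), 1 point per probe set, coloured by gene or list, with triangles at the upper bound for means under 100. In silk Cab-m7 lies at 79.5% and 86.4%, glk1 at 4.77% or less and the C4 list from 0.53% or less to 68.4%.

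Shares of the leaf mean are given as a description. In silk, Zm.16923.1.A1_at and Zm.15442.1.A1_at of Cab-m7 were at 86.4% and 79.5% of their leaf mean, and lhcb6 at 59.8% (Zm.7091.1.A1_at), 57.0% (Zm.7091.1.A1_x_at) and 34.2% (Zm.7091.2.S1_a_at). The minor antenna gene lhcb5 was at 60.2%, Lhcb5-2 at 48.0%, psaH at 59.5% and rbcS at 61.8%. CP22, which dissipates excess light energy, was at 14.0%. By mean signal Zm.16923.1.A1_at ranked 5th in both leaf and silk, and Zm.15442.1.A1_at 12th in leaf and 27th in silk. Whether a compressed scale at this height raised the Cab-m7 shares was not tested.

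The C4 list was not uniform. In silk its 9 probe sets with a leaf mean of at least 100 had a median of 1.20% of leaf and ranged up to 68.4%. In silk pep1 was at 0.91% and ME1 at 0.71% or less, with mdh6 (malate dehydrogenase) at 23.5%, PPCK1 (a kinase of phosphoenolpyruvate carboxylase) at 45.6% and pep7 at 67.0%. The regulator glk1 was at 4.77% or less, with signals under 100 taken as 100. In signals, pep1 was at 13916 ± 152 in leaf and 127 ± 23.9 in silk (SD, n = 3), and glk1 at 2099 ± 585 and 15.5 ± 2.82. The silk value of glk1 was under the reporter percentile of those arrays, so that its share is an upper bound. Cab-m7 (67.1% and 53.3%) and lhcb6 (44.4% for Zm.7091.1.A1_x_at) were also high in stem, with pep1 at 0.84% and glk1 at 4.77% or less. No test was made between lists, and those of light-harvesting, photosystem, Rubisco and C4 genes overlap in silk.

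Silk and ear, the tissues taken before pollination, differed in lhcb6 and less clearly in Cab-m7. Silk over ear was 1.75 ± 0.19 on the log2 scale for Zm.7091.1.A1_x_at (adjusted p = 3.3e-09, limma), 1.80 ± 0.25 for Zm.7091.1.A1_at and 1.87 ± 0.14 for Zm.7091.2.S1_a_at. For Cab-m7, Zm.15442.1.A1_at was called (1.28 ± 0.28, adjusted p = 2.8e-04), while Zm.16923.1.A1_at had 0.93 ± 0.61 (adjusted p = 0.21) although its silk arrays (17648 to 19073) lay above its ear arrays (7742 to 10884). Without root replicate 1, stem replicate 2 and ear replicate 3, each the array of its tissue that correlated least with its replicates, it was called, at 1.02, in a comparison added after the data had been seen. In all, 4 of 6 members were called higher, beside 9.52% of all probe sets, and 0 lower. All 5 photosystem and both Rubisco probe sets were called higher in silk, while 4 of 10 C4 probe sets were called lower, beside 10.0% of all. These C4 calls came from only PPCK1 and C4ppdkZm1, whose probe sets read the same gene and are not independent.

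Stem and stem tip were not separated by a fold of 2 in any member. The log2 differences of stem over stem tip were 0.65 and 0.45 for the Cab-m7 probe sets Zm.15442.1.A1_at and Zm.16923.1.A1_at. They were 0.73, 0.72, 0.36 and -0.03 for lhcb6, with adjusted p of 0.043 and 0.0091 for Zm.7091.1.A1_at and Zm.7091.1.A1_x_at by limma. Without stem tip replicate 3, Zm.7091.1.A1_at was called at 1.01. Of all probe sets 5.46% were called. In the photosystem, Rubisco, C4 and glk1 lists none was called. Among the stem tip arrays replicate 1 was lowest and replicate 3 highest in both Cab-m7 probe sets and in 3 of lhcb6, whereas kn1 was lowest in replicate 3 and highest in replicate 2. The makeup of these samples cannot be told from the signals.

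Averaged over tissues, 5 of the 6 probe sets were higher outside the seed than in it, although the root means of lhcb6 Zm.7091.1.A1_at and Zm.7091.1.A1_x_at (207 and 273) were under every endosperm mean. The root mean of Zm.7091.2.S1_a_at (631) was under endosperm at 15, 20 and 25 DAP (809, 921 and 851). Its ear mean (905) was under endosperm at 20 DAP, with overlapping arrays. Of the 6 members 5 were called higher in the mean of non-seed over the mean of seed tissues, beside 16.1% of all probe sets. With signals under 100 taken as 100, the fold was at least 79.9 for Cab-m7 Zm.16923.1.A1_at and at least 48.4 for Zm.15442.1.A1_at. On the same values the folds of lhcb6 were 19.4, 10.2 and 3.34 for Zm.7091.1.A1_at, Zm.7091.1.A1_x_at and Zm.7091.2.S1_a_at, and the fit on the signals as deposited gave log2 folds of 4.33 ± 0.10, 3.35 ± 0.07 and 1.74 ± 0.05. Zm.7091.2.A1_at had -0.18 and was not called. Of the C4 list 2 of 10 were higher and 3 lower, the latter beside 12.2% of all probe sets, against 5 of 5 photosystem and 2 of 2 Rubisco probe sets higher. The lower C4 probe sets all read the same gene, C4ppdkZm1.

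Inside the seed, lhcb6 stayed low but measurable in endosperm. Zm.7091.1.A1_x_at gave 430, 376 and 419 in endosperm at 10 DAP, 482, 516 and 548 at 15 DAP, 579, 675 and 684 at 20 DAP and 553, 567 and 591 at 25 DAP. In embryo it gave 259, 298 and 280 at 10 DAP, 234, 203 and 256 at 15 DAP, 218, 205 and 237 at 20 DAP and 160, 209 and 195 at 25 DAP. No embryo array reached an endosperm array at any age, and the gap was widest at 20 and 25 DAP. All of these signals lay above the 90th percentile of the reporter probe sets of their own array.

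Averaged over the 4 ages, embryo was lower than endosperm by 1.22 ± 0.10 on the log2 scale for Zm.7091.1.A1_x_at (adjusted p = 1.8e-13, limma) and by 1.59 ± 0.13 for Zm.7091.1.A1_at. These were 2 of the 6 members, where 14.8% of all probe sets were called lower and 16.7% higher. Zm.7091.2.S1_a_at had -0.92 ± 0.07, under the fold threshold, though it was called with quantile normalization (-1.13). Cab-m7 had -0.94 (Zm.16923.1.A1_at) and -0.48 (Zm.15442.1.A1_at) at signals of which 3 of 24 passed the reporter percentile of their array, and with signals under 100 taken as 100 these were -0.066 and 0. When arrays were instead centred on the spiked hybridization controls, which moved the median of all probe sets from -0.12 to 0.46, the value of Zm.7091.1.A1_x_at was -0.63, and it was no longer called.

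**Figure D4:**
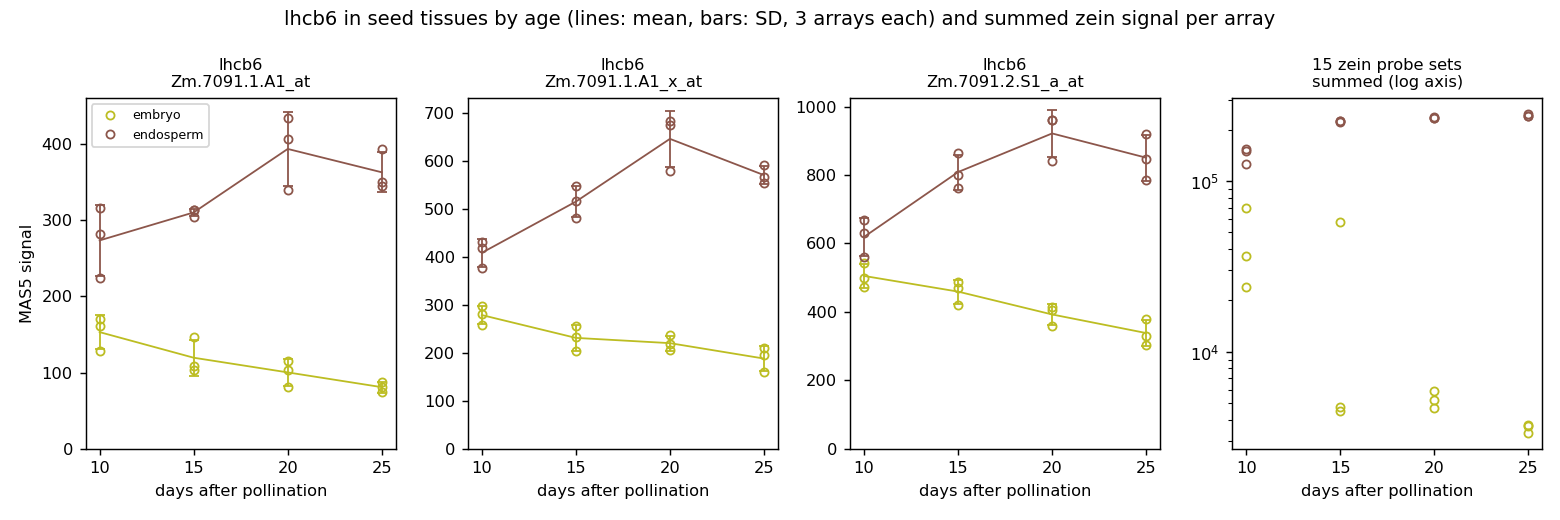
MAS5 signal of 3 lhcb6 probe sets in embryo and endosperm at 10, 15, 20 and 25 DAP (points: arrays, lines: means, bars: SD, n = 3), with the summed signal of 15 zein probe sets per array on a log axis at the right. Endosperm means of lhcb6 rise from 10 to 20 DAP and embryo means fall from 10 to 25 DAP, and zeins are found in embryos of 10 DAP and in 1 embryo array of 15 DAP.

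With age, the signal of 3 of the 4 lhcb6 probe sets took different courses in embryo and endosperm. The reporter background also differed. Its 90th percentile was 79.1 to 82.6 in embryo at 10 DAP and 77.5 to 83.1 at 25 DAP. In endosperm it was higher and rose, from 89.2 to 112 at 10 DAP to 137 to 168 at 25 DAP. The part of this background in the lhcb6 changes was not tested. From 10 to 25 DAP the log2 change in embryo was -0.91 for Zm.7091.1.A1_at, -0.57 for Zm.7091.1.A1_x_at and -0.58 for Zm.7091.2.S1_a_at, and in endosperm 0.42, 0.48 and 0.46. None of the 6 members reached a fold of 2 in embryo or endosperm, beside 20.3% of all probe sets in embryo and 17.4% in endosperm. Without embryo 10 DAP replicate 1, Zm.7091.1.A1_at was called in embryo (-1.04). The difference of the age changes, tested as an interaction, was -1.33 ± 0.36 (adjusted p = 0.0031, limma), -1.06 ± 0.27 (0.0021) and -1.04 ± 0.20 (9.5e-05). These 3 of the 6 members were called, beside 13.8% of all probe sets in that direction. The fourth lhcb6 probe set, Zm.7091.2.A1_at, had -0.02 ± 0.21 (adjusted p = 0.94, limma) and was not called. In embryo at 25 DAP, Zm.7091.1.A1_at was at 74.0, 80.4 and 88.1, about the reporter background, and with signals under 100 taken as 100 its value was -1.02 (adjusted p = 0.022, limma), still called. The calls depended on the scaling: with centring on the hybridization controls, which moved the median of all probe sets from -0.13 to 0.48, the values were -0.72, -0.45 and -0.43 and none was called. With quantile normalization Zm.7091.1.A1_x_at had -0.91, and with a pseudocount of 32 it had -0.96 and Zm.7091.2.S1_a_at -0.98, none called. The call of Zm.7091.1.A1_x_at was also lost without endosperm 10 DAP replicate 2 (-0.999) or embryo 25 DAP replicate 1 (-0.95), and that of Zm.7091.2.S1_a_at without either of these, embryo 10 DAP replicate 3 or endosperm 25 DAP replicate 3 (-0.988 to -0.967), each by missing the fold.

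Zein signal, a mark of endosperm, was present in the young embryos. The summed zein signal was 69397, 24076 and 36268 in embryo replicates 1 to 3 at 10 DAP, 4510, 57557 and 4772 at 15 DAP, and 3359 to 5942 at 20 and 25 DAP, against 126143 or more in endosperm. The embryo array with the most zein at 10 DAP (replicate 1) and at 15 DAP (replicate 2) was the lowest of its age in Zm.7091.1.A1_at, Zm.7091.1.A1_x_at and Zm.7091.2.S1_a_at of lhcb6.

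Cab-m7 gave no age change that was called in the seed. Its interaction was -0.05 ± 0.86 (Zm.16923.1.A1_at, adjusted p = 0.97, limma) and -0.74 ± 0.39 (Zm.15442.1.A1_at, 0.13). In embryos all 12 signals of Zm.16923.1.A1_at were under 100, so that its change with age cannot be set against that of lhcb6. The photosystem list had 2 of 5 probe sets called higher in endosperm at 25 than at 10 DAP, beside 12.3% of all probe sets, and the light-harvesting list 0 of 8.

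The probe sets with tissue patterns most like those of Cab-m7 and lhcb6 were ranked by Pearson r, computed from log2 tissue means (n = 14) after signals under 100 had been set to 100, among 10493 maize probe sets with a tissue mean of at least 1000. All arrays are shared by these correlations, which are descriptions. The highest for Cab-m7 were Zm.16923.3.A1_at for Zm.16923.1.A1_at (r = 0.999) and Zm.1091.1.S1_at for Zm.15442.1.A1_at (r = 0.999), and the annotation used names neither. Among named genes, psaN was among the closest 5 for Zm.15442.1.A1_at (r = 0.992), and lhcb5 (r = 0.991) and OEE3 (r = 0.988), an oxygen-evolving subunit of photosystem II, were among the closest 5 for Zm.7091.1.A1_at. For Zm.7091.2.S1_a_at they included G3PD (r = 0.963), also named GAPA, a chloroplast glyceraldehyde-3-phosphate dehydrogenase. At r of at least 0.9 stood 103 and 146 probe sets for Zm.15442.1.A1_at and Zm.16923.1.A1_at, 79 to 92 for 3 of lhcb6, and 5 for Zm.7091.2.A1_at.

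Cab-m7 lies head to head with COR413-TM1 (GRMZM2G102605), a gene of the COR413 family of cold-regulated membrane proteins known in plants, in the study's list of gene pairs. On the arrays the COR413-TM1 probe set gave 3.46 to 45.5, under the reporter 90th percentile throughout, so that its level was not measured above background in any tissue. Its lowest tissue means were 6.68 in root, 8.75 in silk and 9.11 in leaf, and its highest 41.9 in stem tip. At these signals no direction was read from it, and over 14 tissue means its r with Cab-m7 Zm.16923.1.A1_at was -0.10.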

How the data were processed

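The deposited table holds MAS5 signal intensity values, which the authors made for each probe set on each array, and the MAS5 version and scaling target are not given in the sources used here. Arrays have no read depth, so 3 replicates limit the precision. The log2 signals, not scaled again, of 42 arrays from 14 tissues entered 1 group-means model (limma 3.58.1, R 4.3.3, eBayes trend), and 113 control probe sets were left out. Permutation tests were two-sided and exact (scipy 1.17.1, Python 3.11.15). The fit and the permutation test were tested on simulated data. The members and gene lists were chosen with earlier results of these data known. Lists were matched by symbol or synonym, since the annotation used names 1452 of the maize probe sets by 1 symbol; 4 probe sets of other genes with a like symbol were left out. All members and the genes of the photosynthesis lists were named. Of the closest patterns only some were named, Zm.16923.3.A1_at and Zm.1091.1.S1_at only by their probe set. Folds given as at least, and shares given as or less, took signals under 100 as 100, and other values are from signals as deposited. The fits were repeated with quantile normalization, with arrays centred on medians or on 27 hybridization controls, with a pseudocount of 32, a floor or a filter at 100, no trend, only the arrays compared, the replicate number as a block and each array left out. Sequences were not used here.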

Additional observations from a re-analysis of the deposited data

Results flagged for a closer look

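For lhcb6, the change with age differed between the parts of the seed in 3 of 4 probe sets. Its log2 change from 10 to 25 DAP in embryo minus that in endosperm was -1.33 for Zm.7091.1.A1_at, -1.06 for Zm.7091.1.A1_x_at and -1.04 for Zm.7091.2.S1_a_at, and limma tested each difference as an interaction (adjusted p = 0.0031, 0.0021 and 9.5e-05). These 3 probe sets were called, beside 13.8% of all probe sets in that direction. They read 1 gene and are not independent of each other. The fourth lhcb6 probe set, Zm.7091.2.A1_at, had -0.02 (limma, adjusted p = 0.94) and was not called. None of the 3 reached a fold of 2 in embryo or endosperm alone. With arrays centred on the hybridization controls the values were -0.72, -0.45 and -0.43, and none was called (limma, adjusted p = 0.15, 0.32 and 0.29). The call of Zm.7091.1.A1_x_at was also lost with quantile normalization (-0.91). With a pseudocount of 32, Zm.7091.1.A1_x_at (-0.96) and Zm.7091.2.S1_a_at (-0.98) missed the fold. Both also missed it when certain single arrays were left out. The parts of the zein signal in young embryos and of the reporter background, which rose in endosperm, in these values were not tested.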

How the results depend on the processing

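No result for the 6 probe sets changed its call without the eBayes trend, with the filter at 100, with the arrays compared alone or with the replicate number as a block. The block gave 970 calls for stem against stem tip, in place of 962. Over all pairs of different tissues, same-numbered arrays did not deviate together in the median (r = 0.007, against -0.003 for different numbers). Single same-numbered pairs ranged from -0.47 to 0.50. A median over all tissues cannot exclude that the numbers pair some of them, such as embryo and endosperm of the same age. Fitted on its own 6 arrays, stem against stem tip gave 0 calls by limma over all probe sets, with 3275 at an unadjusted p under 0.05. With an array or replicate number left out it gave 563 (without stem tip replicate 1) to 1186.

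Centring on the hybridization controls turned the endosperm age change of lhcb6 Zm.7091.1.A1_x_at to -0.031, of Zm.7091.1.A1_at to -0.094, of Zm.7091.2.S1_a_at to -0.055, of Zm.7091.2.A1_at to -0.47 and of Cab-m7 Zm.15442.1.A1_at to -0.20. It turned embryo minus endosperm of Zm.15442.1.A1_at to 0.10, stem minus stem tip of Zm.7091.2.A1_at to 0.018 and its interaction to 0.59. It took embryo minus endosperm of Zm.7091.1.A1_x_at to -0.63 and its interaction to -0.45, both without a call. The share of calls that were higher went from 53.0% to 83.7% for embryo minus endosperm, from 38.4% to 81.2% for the interaction, from 70.6% to 27.1% for endosperm age (49.5% with quantile normalization and 49.1% with median centring), from 44.7% to 31.1% for leaf (55.2% with median centring) and from 48.8% to 35.6% for silk minus ear. Median centring gave 41.1% for embryo minus endosperm, 46.1% in place of 62.0% for embryo age and 67.5% in place of 78.1% for stem minus stem tip, and quantile normalization 51.1% for the interaction.

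The interaction of Cab-m7 Zm.16923.1.A1_at, -0.05, was 0.56 with those controls, 0.39 with quantile normalization, 0.046 with the pseudocount and 0.24 with the floor. That of Zm.7091.1.A1_x_at was -0.91 with quantile normalization and -0.96 with the pseudocount, and that of Zm.7091.2.S1_a_at -0.98 with the pseudocount, each under a fold of 2. Zm.7091.2.A1_at turned with quantile normalization to -0.049 in embryo age, -0.28 in endosperm age and 0.23 in the interaction, and with median centring to -0.18, -0.20 and 0.017. With median centring Zm.16923.1.A1_at was called in embryo minus endosperm (-1.11).

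Without all 3 root arrays the leaf value of Zm.16923.1.A1_at was 0.74. The differences between probe sets in leaf were then -0.87, -1.75 and -0.88, all passing the exact permutation test, which exchanges single arrays and not tissues. Without root replicate 1, stem replicate 2 and ear replicate 3, silk minus ear of Zm.16923.1.A1_at was 1.02 and called. With the floor, the age change in embryos of Zm.16923.1.A1_at minus that of Zm.7091.2.S1_a_at was 0.40 in place of 0.13 (exact permutation, adjusted p = 0.013), which is the change of lhcb6 alone, since every embryo signal of Cab-m7 was then 100.

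With single arrays or a replicate number left out, Zm.16923.1.A1_at ranged from 1.32 to 1.96 in leaf, from -1.01 to -0.88 in embryo minus endosperm and from -0.30 to 0.24 in the interaction. The interaction of Zm.7091.1.A1_x_at ranged from -1.14 to -0.95. Zm.7091.2.A1_at, with no call, ranged from -0.11 to 0.091 in stem minus stem tip, from -0.071 to 0.10 in embryo age, from -0.0022 to 0.10 in endosperm age and from -0.10 to 0.050 in the interaction. Zm.16923.1.A1_at minus Zm.7091.1.A1_x_at ranged from -1.04 to -0.53 in leaf and from -0.041 to 0.21 in embryos.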
